A study of Homo sapiens with 5 samples.

Results

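SH-SY5Y cells in which UPF1 had been targeted by siRNA were compared directly with SH-SY5Y cells in which STAU1 had been targeted. The comparison rested on the difference of the deposited log2 values, siUPF1 minus siSTAU1, for each gene symbol. Genes entered when at least one of both values reached 7.8, which 8556 of the 26364 symbols did; these are called measured genes. WDR59, GPC1 and TTC28-AS1 lay just inside that floor and GDPD1, ZC3H6 and PHLPP2 lay just outside it.

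SH-SY5Y is a human neuroblastoma line that can be turned towards a neuron-like state. The series held 5 libraries, 1 for each of 5 groups, titled siControl, siSTAU1, siUPF1, Nondifferentiation and Differentiation. The study asked which transcripts increase both after loss of either factor and on differentiation. RNA was read from its polyadenylated 3' ends, so a value does not scale with transcript length. The 3 siRNA libraries came from cells in medium with 10% serum and 1% antibiotic, and the labels add 50 uM retinoic acid to the medium of both other libraries, the one titled Nondifferentiation included. No source used here states the siRNA sequences, the time after transfection or whether cultures were pooled. With 1 library a group no difference has a replicate check and none was tested. Genes are therefore described by size, and a gene is counted as higher in 1 library when the values differed by at least 1 on the log2 scale, that is 2-fold.

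STAU1 recognises double-stranded stretches of RNA, many of them in 3' untranslated regions. UPF1 is an RNA helicase required for nonsense-mediated decay, the pathway that removes mRNAs on which translation stops too early. In Staufen-mediated decay STAU1 brings UPF1 to an mRNA, so that both proteins act on one transcript, whereas nonsense-mediated decay needs UPF1 and its UPF and SMG partners. Several mRNAs of these partners are themselves substrates of nonsense-mediated decay. Setting the knockdown libraries against each other shows transcripts whose levels differed between these 2 libraries, with no control library entering the difference. As no group had a replicate, whether the targeted factor, the siRNA, the culture or the library gave a difference was not tested.

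Both targeted genes differed in the direction of the labels. STAU1 stood at 12.89 in siUPF1 and 11.34 in siSTAU1, with 12.87 in siControl and 12.86 in both Nondifferentiation and Differentiation, all log2 values. The siSTAU1 library was thus the low one, by 1.55 on the log2 scale or 2.92-fold against siUPF1 (counting SE 0.04). UPF1 was at 9.20 in siUPF1 and 10.64 in siSTAU1, beside 10.74 in siControl, 10.62 in Nondifferentiation and 10.69 in Differentiation. Here siUPF1 was the low library, by 2.71-fold against siSTAU1 (counting SE 0.07). Neither targeted mRNA was low in the library of the other knockdown. Of 10 neuroblast markers 8 were at or above the floor in both libraries and none was listed at 0.

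The 2 libraries were close to each other for most genes. The median difference was -0.02, its SD over genes 0.30, and 91.9% of genes lay within 0.5 of each other. Of 8556 measured genes 47 (0.549%) were 2-fold or more higher in siUPF1 and 26 (0.304%) were 2-fold or more higher in siSTAU1, together 73 (0.853%). The spread between siControl and Nondifferentiation, which are different libraries from this pair and carried no knockdown, was of like size: an SD of 0.31, with 68 of 8566 genes (0.794%) past 2-fold, 19 (0.222%) higher and 49 (0.572%) lower in siControl. The share of genes past 2-fold was therefore near that between 2 libraries without either knockdown. Those 2 are not replicates, as siControl is an siRNA library and the labels list retinoic acid for Nondifferentiation. Against siControl the shares were smaller, 0.211% of 8521 genes in siSTAU1 (SD 0.25) and 0.549% of 8557 in siUPF1 (SD 0.29). The excess of genes higher in siUPF1 over genes higher in siSTAU1 is a description of the 2 knockdown libraries. The gaps between the lowest values gave an estimated depth of 16100000 reads for siSTAU1 and 17800000 for siUPF1, and a gene at the floor rested on about 184 and 204 reads. The counting SE of the 73 differences ran from 0.02 to 0.28; it covers counting error only.

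**Figure D1:**
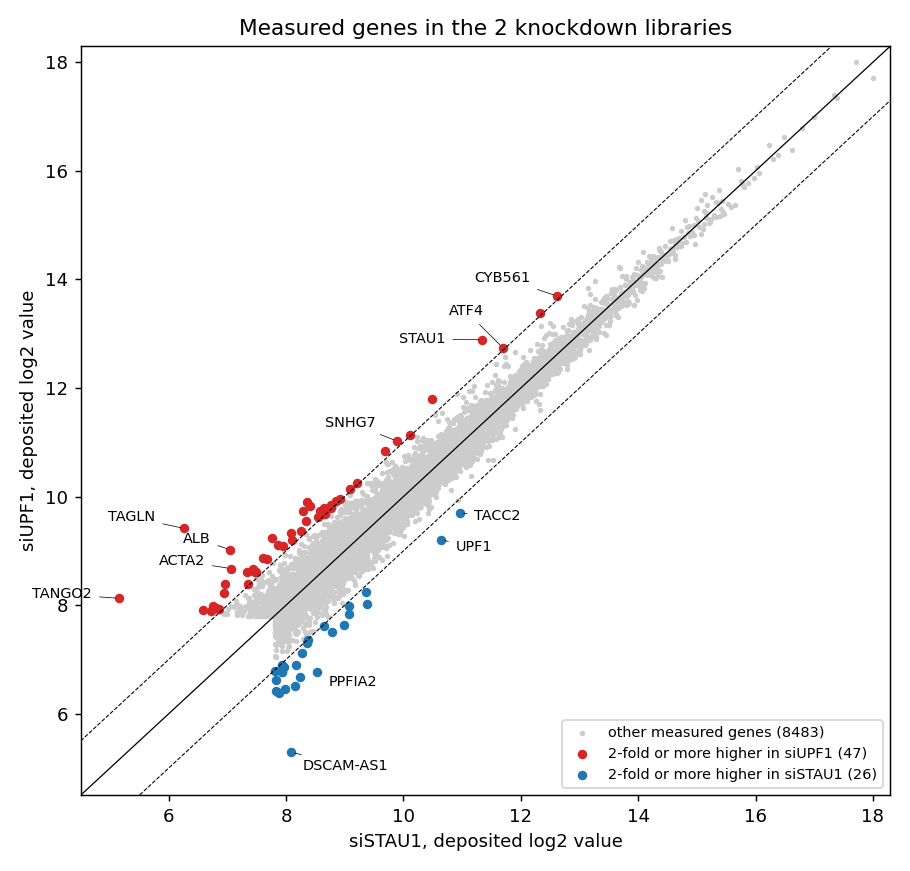
Deposited log2 value of each of the 8556 measured genes in siSTAU1 (horizontal) and siUPF1 (vertical); the solid line marks equal values and the dashed lines a 2-fold difference. Red points are the 47 genes 2-fold or more higher in siUPF1, blue points the 26 higher in siSTAU1, and most coloured points lie in the lower part of the range.

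Among the 47 genes higher in siUPF1 were 4 of contractile actin filaments, TAGLN, ACTA2, CNN1 and TGFB1I1. TAGLN, transgelin, an actin-binding protein of smooth muscle, had the largest difference of all measured genes. It stood at 9.41 in siUPF1 and 6.27 in siSTAU1, with 7.90 in siControl, 8.13 in Nondifferentiation and 6.47 in Differentiation. The siUPF1 value was the highest of the 5 and the siSTAU1 value the lowest, 3.15 apart or 8.85-fold (counting SE 0.19). ACTA2, smooth muscle alpha actin, was at 8.67 in siUPF1, 7.06 in siSTAU1, 7.79 in siControl, 8.54 in Nondifferentiation and 8.20 in Differentiation. Again siSTAU1 was lowest and siUPF1 highest, by 1.61, although Nondifferentiation lay only a little under siUPF1. In bulk RNA, fewer cells that express such a gene and less of its RNA in each cell cannot be told apart.

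CNN1, calponin, which binds actin and slows contraction, stood at 9.74 in siUPF1, 8.58 in siSTAU1, 8.94 in siControl, 8.99 in Nondifferentiation and 8.002 in Differentiation. TGFB1I1, the focal adhesion protein Hic-5, stood at 9.79, 8.77, 9.03, 9.61 and 10.56 in the same order. CNN1 was highest in siUPF1, and TGFB1I1 was highest in Differentiation. The differences were 1.16 and 1.02 (counting SE 0.10 and 0.09). These 4 genes are transcriptional targets of serum response factor in muscle, which binds a motif called the CArG box. The promoter bases of the 3 genes with a RefSeq entry are printed to show where that motif stands in genes that differed in the same direction; capitals mark matches to the CArG box, on either strand, with at most 1 mismatch, in the 250 bases before the annotated start (RefSeq, GRCh38.p14).
ACTA2, chr10:88952774-88953023, minus strand: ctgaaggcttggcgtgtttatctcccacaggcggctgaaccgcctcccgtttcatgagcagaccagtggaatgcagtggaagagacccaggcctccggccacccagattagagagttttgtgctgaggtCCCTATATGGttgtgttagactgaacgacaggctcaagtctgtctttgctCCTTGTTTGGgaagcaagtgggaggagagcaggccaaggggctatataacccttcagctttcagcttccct
TGFB1I1, chr16:31472955-31473204, plus strand: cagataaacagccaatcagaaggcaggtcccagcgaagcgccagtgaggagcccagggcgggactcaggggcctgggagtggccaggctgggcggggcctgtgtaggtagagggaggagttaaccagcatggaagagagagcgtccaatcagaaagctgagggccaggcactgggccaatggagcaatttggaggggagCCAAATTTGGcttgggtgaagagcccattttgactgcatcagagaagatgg
CNN1, chr19:11538601-11538850, plus strand: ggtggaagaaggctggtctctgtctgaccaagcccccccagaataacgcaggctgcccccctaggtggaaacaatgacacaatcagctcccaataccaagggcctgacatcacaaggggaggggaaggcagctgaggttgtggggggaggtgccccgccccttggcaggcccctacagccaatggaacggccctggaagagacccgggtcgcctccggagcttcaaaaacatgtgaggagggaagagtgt
The ACTA2 window held 2 matches with 1 mismatch, 121 and 71 bases before the start. The TGFB1I1 window held 1 full match 51 bases before its start, and no such letters stand in the CNN1 window. Of 35116 RefSeq promoter windows of this length, 1.16% held a full match and 16.8% a match with at most 1 mismatch. ACTA2 and TGFB1I1 have further RefSeq starts, whose windows held no match for ACTA2 and a single match with 1 mismatch for TGFB1I1. A match is a run of letters and was not tested as a binding site.

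Over the wider set of contractile and SRF-regulated actin genes, 29 of 35 were measured and 25 of the 29 differences were above 0, where 46.4% of all measured genes were. The set includes the 4 genes above and was chosen with earlier results of these data known, so it is no separate support for them. The median was 0.25, beside -0.02 over all genes, and 4 of the 29 passed 2-fold, all of them higher in siUPF1. Below 2-fold stood MYLK, the myosin light chain kinase, at 0.73, TPM1, a tropomyosin, at 0.71, SMTN, smoothelin, at 0.65 and ZYX, zyxin, at 0.58. The neuronal transgelin TAGLN3 had a difference of -0.53 and MKL2, a coactivator of serum response factor, of -0.49, and SRF itself had 0.22. The same list had a median of -0.19 in siControl minus Nondifferentiation, a difference nearly as large in the other direction between libraries without knockdown. Against siControl its median was 0.23 in siUPF1 and -0.17 in siSTAU1, 2 values that share the siControl library. ACTA2 overlaps the antisense gene ACTA2-AS1, at 7.64 in siUPF1 and 5.995 in siSTAU1, and no source used here says whether counting used strand, so the reads of such pairs may not be separable. Of 17 mesenchymal neuroblastoma markers, a list that also holds TAGLN and ACTA2, 7 were measured with a median of 0.00; VIM differed by 0.25, FN1 by -0.11 and YAP1 by -0.21, and the list's summed linear value was 65325 in siUPF1 and 68150 in siSTAU1.

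The machinery of nonsense-mediated decay lay on the siUPF1 side. Of 13 UPF and SMG factors 12 were measured, and the differences of 10 were above 0, with a median of 0.41. UPF1 was the only one past 2-fold. SMG9, a regulator of the kinase SMG1 that phosphorylates UPF1, came just short: it stood at 8.49 in siUPF1, 7.50 in siSTAU1, 7.97 in siControl, 7.59 in Nondifferentiation and 7.43 in Differentiation, a difference of 0.99. For SMG9 the siUPF1 value was the highest of the 5.

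SMG5, an adaptor that recruits decay enzymes, stood at 8.83 in siUPF1, 8.15 in siSTAU1, 8.48 in siControl, 8.34 in Nondifferentiation and 7.74 in Differentiation. SMG6, the endonuclease that cuts the target mRNA, had 10.99, 10.36, 10.55, 10.67 and 11.60 in this order. For SMG5, siUPF1 was the highest of the 5 libraries, and for SMG6 only Differentiation was higher. SMG1 differed by 0.46 and had its highest value, 8.83, in siUPF1.

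UPF2, UPF3A and UPF3B, which link UPF1 to the exon junction complex, differed in another way. UPF3B stood at 10.94 in siUPF1, 10.28 in siSTAU1, 10.88 in siControl, 10.29 in Nondifferentiation and 10.17 in Differentiation. UPF2 stood at 9.54, 9.05, 9.72, 9.16 and 9.25 in this order. Thus siControl lay near or above siUPF1 for both genes, while Nondifferentiation lay near siSTAU1. UPF3A differed by 0.31, with siControl at 10.16 above siUPF1 at 9.94. The list median was 0.30 in siUPF1 against siControl and -0.24 in siSTAU1 against siControl, which share that library, and 0.17 in siControl minus Nondifferentiation. Closest to 0 stood NBAS, at -0.07, SMG8, at 0.08, and PNRC2, at 0.12; DHX34 was under the floor.

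Other decay factors differed little. The 9 measured members of the exon junction complex had a median of -0.08 and none passed 2-fold, from -0.27 for its helicase EIF4A3 to 0.14 for CASC3. Decapping, deadenylation and exosome factors had a median of -0.11 over 30 measured genes, with 22 below 0 and none past 2-fold. The deadenylase CNOT6L was the lowest of them, at -0.68, and the nuclease PARN the highest, at 0.36. Among 13 measured Staufen and other double-stranded RNA-binding proteins STAU1 alone passed 2-fold, and the median was -0.10. STAU2, the paralog of STAU1, stood at 11.39 in siUPF1, 11.64 in siSTAU1, 11.32 in siControl, 11.27 in Nondifferentiation and 11.69 in Differentiation, a difference of -0.25.

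Known substrates of nonsense-mediated decay leaned to the siUPF1 side. Of 32 protein-coding targets 30 were measured, 21 differences were above 0, the median was 0.20 and 1 passed 2-fold; 6 of the 30 are UPF and SMG factors already described. ATF4, a transcription factor of the amino acid stress response whose mRNA carries upstream reading frames, was the one past 2-fold. ATF4 stood at 12.74 in siUPF1, 11.69 in siSTAU1, 12.02 in siControl, 11.69 in Nondifferentiation and 11.18 in Differentiation. The siUPF1 library was the highest and the difference was 1.05 (counting SE 0.03).

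UPP1, uridine phosphorylase, stood at 7.94 in siUPF1, 7.02 in siSTAU1, 6.87 in siControl, 8.29 in Nondifferentiation and 7.46 in Differentiation, a difference of 0.92. ATF3, a stress-induced transcription factor, stood at 9.22, 8.38, 8.03, 8.53 and 6.83 in this order, a difference of 0.83. ATF3 was highest in siUPF1, whereas UPP1 was higher still in Nondifferentiation. GADD45A, a growth arrest gene, differed by 0.63 and NAT9, an acetyltransferase, by 0.62. Among splicing factors and ribosomal proteins whose alternative isoforms are decay substrates, SRSF2 stood at -0.18, SRSF3 at -0.09, TRA2A at -0.02, RPL3 at 0.01, SRSF7 at 0.02 and RPL10A, the lowest of the 30, at -0.31. Counting at the 3' end adds up isoforms of a gene that share that end, so these values do not show an isoform alone. The list had a median of -0.05 in siControl minus Nondifferentiation.

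Small nucleolar RNA host genes, whose spliced noncoding transcripts are classic substrates, had a median of 0.16 over 14 measured of 19 listed, with 10 above 0 and 1 past 2-fold. SNHG7 stood at 11.02 in siUPF1, 9.89 in siSTAU1, 9.67 in siControl, 10.14 in Nondifferentiation and 9.62 in Differentiation. SNHG17 stood at 9.83, 8.84, 8.82, 8.97 and 7.79. For both, siUPF1 was the highest library by a clear gap and the other siRNA libraries lay close together, with differences of 1.13 and 0.98. EPB41L4A-AS1 followed at 0.54 and GAS5 at 0.51, while SNHG3 and SNHG16 had -0.28 and DANCR -0.27. SNHG7 overlaps FAM69B on the opposite strand, which differed by 0.87. In siControl minus Nondifferentiation the list had a median of -0.06.

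The mRNAs reported as Staufen-mediated decay targets did not separate the 2 knockdowns. Of 10 in the files 6 were measured, none passed 2-fold and the median was 0.12. The differences were 0.43 for CYR61, a matrix signalling protein, 0.32 for JUN, 0.19 for ARF1, a small GTPase of the Golgi, 0.04 for DPF2, -0.10 for GAP43, a growth cone protein, and -0.29 for SOWAHC. ARF1, the classic target, stood at 13.79 in siUPF1, 13.60 in siSTAU1, 13.48 in siControl, 13.78 in Nondifferentiation and 14.05 in Differentiation, so that both knockdown libraries were a little above siControl and Nondifferentiation was level with siUPF1. KLF2 was under the floor, and PAX3 and IL7R were listed at 0 in all 5 libraries. In siControl minus Nondifferentiation these genes had a median of -0.28, larger than the difference between the knockdowns.

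**Figure D2:**
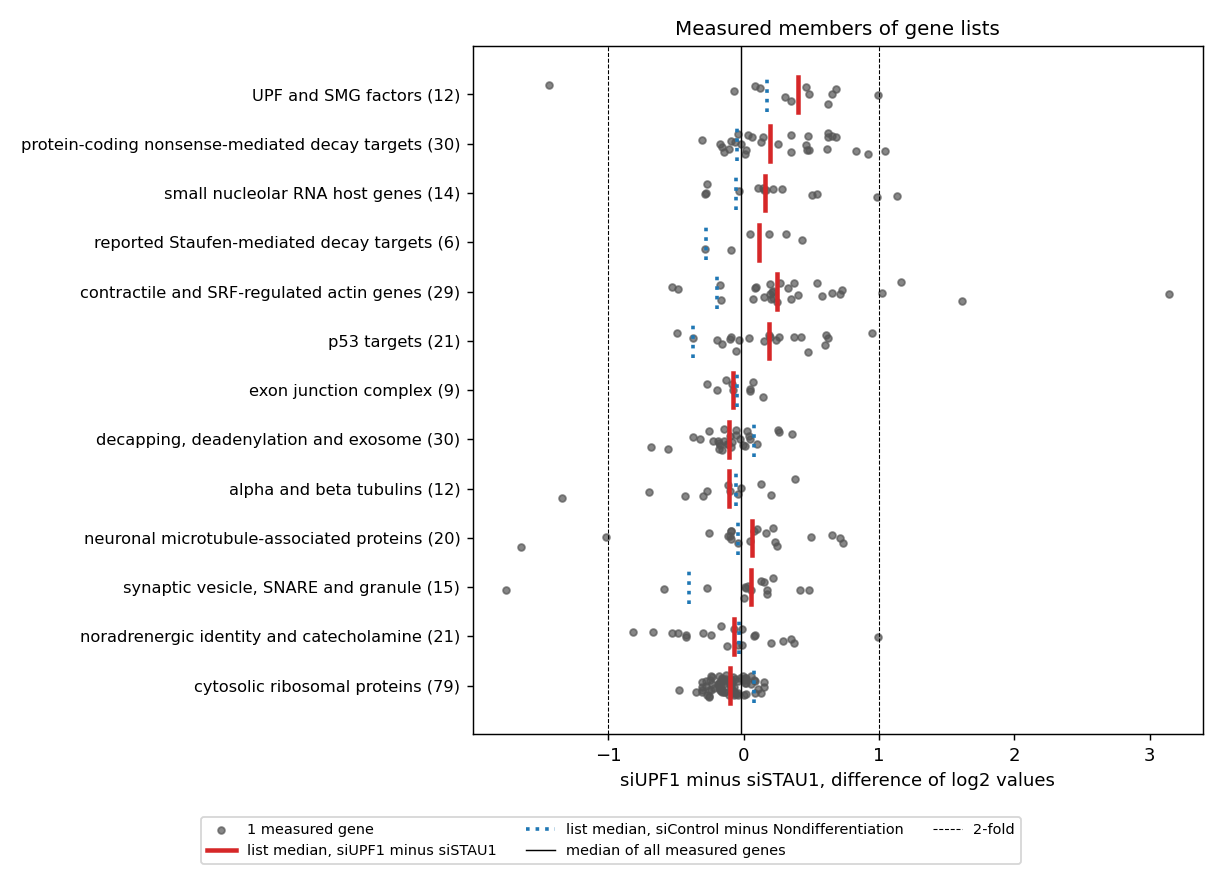
Difference of log2 values, siUPF1 minus siSTAU1, for each measured gene (grey points) of 13 gene lists, with the number of genes in brackets; red bars are list medians, blue dotted bars the medians of the same lists in siControl minus Nondifferentiation, the solid line the median of all measured genes and the dashed lines 2-fold. UPF and SMG factors have the highest median of the lists drawn, 0.41, and TAGLN is the point at 3.15.

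Outside these lists the genes highest in siUPF1 were of mixed function. TANGO2, named for transport and Golgi organisation, stood at 8.13 in siUPF1, 5.15 in siSTAU1, 7.76 in siControl, 7.67 in Nondifferentiation and 7.95 in Differentiation. The siSTAU1 library alone was low and the other 4 lay together, so the difference of 2.97 or 7.85-fold (counting SE 0.28) was a low value in siSTAU1. PAK4, a kinase that acts downstream of Cdc42, had 9.24 in siUPF1, 7.77 in siSTAU1, 9.09 in siControl, 9.15 in Nondifferentiation and 7.78 in Differentiation, so that siSTAU1 and Differentiation were the low libraries. SLC50A1, a sugar transporter, stood at 11.80, 10.49, 11.25, 11.43 and 12.56, with siSTAU1 lowest. TM7SF2, a sterol reductase, stood at 8.62, 7.47, 8.16, 8.09 and 10.95, also with siSTAU1 lowest, a difference of 1.15.

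DNAJB2, a co-chaperone of neurons, stood at 9.91 in siUPF1, 8.35 in siSTAU1, 8.99 in siControl, 9.19 in Nondifferentiation and 9.73 in Differentiation. PHF1, a Polycomb-associated chromatin protein, stood at 9.83, 8.40, 8.97, 9.50 and 9.69. Both genes were highest in siUPF1 and lowest in siSTAU1, with siControl between, at differences of 1.56 and 1.43. AMT, an enzyme of glycine cleavage, differed by 1.33, yet its siControl value of 7.18 was also more than 2-fold under its Nondifferentiation value of 8.23. PTRF, the caveolar coat protein cavin-1, stood at 9.73 in siUPF1 and 8.28 in siSTAU1; its siControl value, 8.31, matched siSTAU1 and its Nondifferentiation value, 9.50, lay near siUPF1.

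A further group was high in siUPF1 alone among the siRNA libraries. GABARAPL1, an autophagy protein that joins autophagosome membranes, stood at 9.11 in siUPF1, 7.87 in siSTAU1, 7.76 in siControl, 8.06 in Nondifferentiation and 9.18 in Differentiation. PAX6, a transcription factor of eye and brain development, had 7.98, 6.76, 6.61, 7.47 and 8.49. Both were highest in Differentiation, with siUPF1 next. CYB561, the cytochrome of catecholamine granules, had 13.69 in siUPF1, 12.62 in siSTAU1, 12.89 in siControl, 13.31 in Nondifferentiation and 12.28 in Differentiation, and at that level its counting SE was 0.02. Others past 2-fold were the DNA glycosylase MUTYH at 1.09, the ubiquitin ligase CHFR at 1.22, argininosuccinate lyase, ASL, at 1.15 and PEA15 at 1.05. The noncoding RNAs HEIH, LINC00152 and ZNF790-AS1 differed by 1.21, 1.12 and 1.44. LINC00152 and the pseudogene RP9P, at 1.03, have near-identical copies in the genome, which makes their values uncertain.

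**Figure D3:**
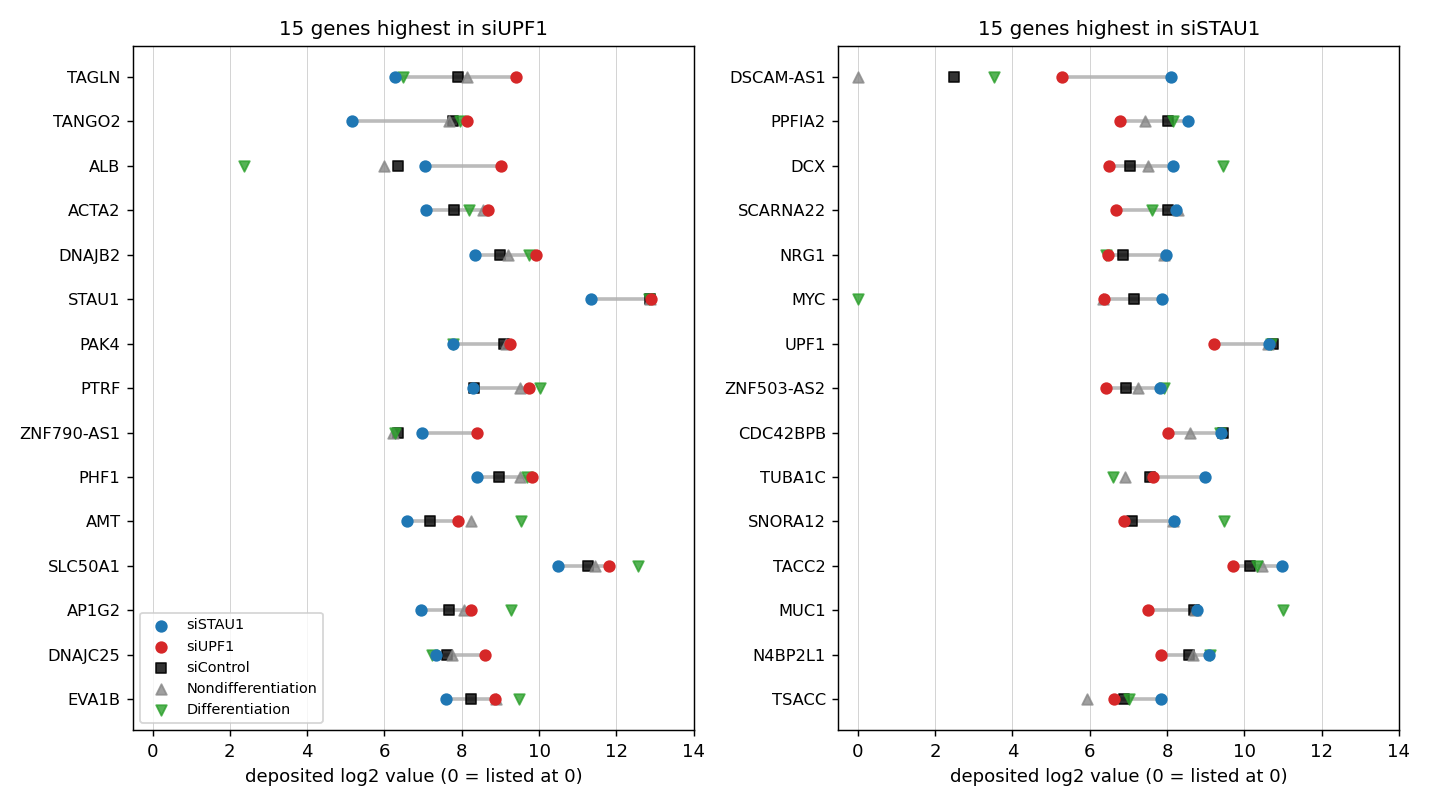
Deposited log2 value in each of the 5 libraries for the 15 genes highest in siUPF1 (left) and the 15 highest in siSTAU1 (right), ordered by the difference; a grey bar joins siSTAU1 (blue) and siUPF1 (red), and 0 means listed at 0. For TANGO2 the siSTAU1 point stands alone at 5.15, and for STAU1 and UPF1 the targeted library does.

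Genes higher in siSTAU1 than in siUPF1 included several of neurons. PPFIA2, a liprin scaffold of presynaptic release sites, stood at 6.78 in siUPF1, 8.53 in siSTAU1, 8.04 in siControl, 7.43 in Nondifferentiation and 8.16 in Differentiation. DCX, doublecortin, which stabilises microtubules in migrating neurons, had 6.51, 8.16, 7.04, 7.51 and 9.44. DCLK1, its kinase relative, had 7.35, 8.37, 8.28, 8.52 and 10.38. All 3 were lowest in siUPF1, and DCX and DCLK1 were highest in Differentiation; the differences were -1.75, -1.65 and -1.02. PAK3, a neuronal kinase of the Cdc42 pathway, also lay on this side, at -1.04, opposite to PAK4.

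Their gene families did not share that direction. The 20 measured neuronal microtubule-associated proteins had a median of 0.06, with 11 above 0, and the stathmins STMN3 and STMN4 and the intermediate filament gene PRPH leaned to siUPF1, at 0.74, 0.71 and 0.66. Synaptic vesicle, SNARE and granule genes had a median of 0.05 over 15 measured, with 12 above 0 and PPFIA2 the one past 2-fold. Among 21 measured noradrenergic identity and catecholamine genes none passed 2-fold and the median was -0.07. RET, the receptor tyrosine kinase of glial-derived neurotrophic factors, came closest, at 8.77 in siUPF1 and 7.78 in siSTAU1, a difference of 0.99; INSM2, at -0.82, and ISL1, at -0.67, both transcription factors, leaned the other way. Of 12 measured tubulins 9 had differences below 0, and TUBA1C passed 2-fold at -1.34. TUBA1C stood at 7.64 in siUPF1, 8.98 in siSTAU1, 7.56 in siControl, 6.90 in Nondifferentiation and 6.60 in Differentiation, high in siSTAU1 alone, but its sequence is nearly the same as that of its highly expressed relatives and the value is uncertain.

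MYC, the growth-promoting transcription factor, stood at 6.38 in siUPF1, 7.88 in siSTAU1, 6.34 in Nondifferentiation and 7.15 in siControl, with Differentiation listed at 0. NRG1, neuregulin, a ligand of ERBB receptors, stood at 6.46, 7.98, 6.87, 7.92 and 6.43 across the 5 libraries in the usual order. For MYC only siSTAU1 was at the floor, whereas NRG1 was as high in Nondifferentiation as in siSTAU1. CDC42BPB, a kinase that moves actomyosin, stood at 8.02 in siUPF1, 9.38 in siSTAU1, 9.45 in siControl, 8.58 in Nondifferentiation and 9.38 in Differentiation. For CDC42BPB siUPF1 was the lowest library, and Nondifferentiation, without knockdown, was also low. TACC2, a centrosomal protein, had 9.70, 10.96, 10.15, 10.44 and 10.32, with siSTAU1 highest. The differences of these 4 were -1.50, -1.52, -1.36 and -1.27.

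Several symbols of small RNAs lay on the siSTAU1 side. SCARNA22, a Cajal body RNA, differed by -1.55, SNORA12 by -1.28, and SNORA81 and MIR1248, which had the same values in all 5 libraries, by -1.17. These RNAs are processed from introns of longer genes, and their hosts differed less: WHSC1, host of SCARNA22, by -0.03, CWF19L1, host of SNORA12, by -0.44, and EIF4A2, host of SNORA81 and MIR1248, by 0.14. With a trend in GC content and length removed, SNORA12 (-0.99), SNORA81 (-0.88) and MIR1248 (-0.79) were under 2-fold. SNORA81 and MIR1248 overlap one another, so they count as 1 signal under 2 names. The libraries read polyadenylated 3' ends, and whether reads at these symbols came from the small RNAs or from host transcripts was not tested.

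The place of siControl between the knockdown libraries varied from gene to gene. The 47 genes higher in siUPF1 had siControl nearer siSTAU1 in 31 cases, nearer siUPF1 in 6 and at least 0.5 from both in 10. The matching share over all measured genes was not counted, so such splits have no background here and are not a result about these genes. Over the genes measured in each comparison, the SD was 0.25 for siSTAU1 minus siControl and 0.29 for siUPF1 minus siControl. The 6 nearer siUPF1 were STAU1, TANGO2, PAK4, TM7SF2, DEDD2 and TRPT1. The 10 at least 0.5 from both included TAGLN, ACTA2, DNAJB2, PHF1 and SLC50A1. In most genes of both sets siControl lay between the 2 knockdown libraries. The genes were chosen for a wide gap between those libraries, which by itself favours a siControl value inside it. The siControl value was outside the pair in 11 of the 47 genes and in 5 of the 26 higher in siSTAU1. On the other side, the 26 genes had siControl nearer siSTAU1 in 13 cases, UPF1 and PPFIA2 among them, nearer siUPF1 in 9, among them DSCAM-AS1, NRG1, TUBA1C and TACC2, and between in 4, DCX, MYC, ZNF503-AS2 and MECOM. Of the 47 genes 16 also passed 2-fold in siUPF1 against siControl (35 of 8557 genes higher, 0.409%) and 4 in siSTAU1 against siControl (9 of 8521 lower, 0.106%), while 28 passed in neither; either way, 47 of 8557 genes (0.549%) and 18 of 8521 (0.211%) passed in those comparisons. Of the 26 the counts were 6 (12 of 8557 lower, 0.14%), 5 (9 of 8521 higher, 0.106%) and 15. These comparisons share a library with the one described and are not a separate check. In 7 of the 73 genes siControl and Nondifferentiation themselves differed 2-fold or more: PTRF, AMT, LUM, ABCA12, NRG1, SNORA12 and DSCAM-AS1.

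Markers of other cell types moved with some of the largest differences. DSCAM-AS1, a noncoding RNA of luminal breast cells, was the gene most in favour of siSTAU1, at 5.29 in siUPF1 and 8.09 in siSTAU1 beside 2.49 in siControl and 3.54 in Differentiation, and listed at 0 in Nondifferentiation. Its difference was -2.80 (counting SE 0.26). DSCAM, the gene it runs antisense to, was listed at 0 in 4 libraries and had 5.11 in siSTAU1. The epithelial keratins lay under the floor and followed the same order: KRT8 at 4.23 in siUPF1 and 7.53 in siSTAU1, with siControl at 2.49, and KRT18 at 4.74 and 7.56, with siControl again at 2.49. CDH1, E-cadherin, and ESRP1, an epithelial splicing factor, were listed at 0 in siUPF1 and siControl and stood at 5.21 and 5.25 in siSTAU1. Of 14 epithelial markers none was listed at 0 in siSTAU1, against 5 in siUPF1 and 6 in siControl, and their summed linear value was 1702 in siSTAU1, 932 in siUPF1, 1193 in siControl, 1152 in Nondifferentiation and 2629 in Differentiation. MUC1, an epithelial mucin past 2-fold, stood at 7.51 in siUPF1, 8.78 in siSTAU1 and 8.71 in both siControl and Nondifferentiation, so there siUPF1 was the low library. In Differentiation MUC1 reached 11.01. CLDN7, a claudin, stood at 8.91 in siUPF1, 8.96 in siSTAU1 and 9.16 in siControl. MUC1 and CLDN7 were the largest members of the list in each library, so the sums do not follow the keratins. Of 14 luminal breast markers 4 were listed at 0 in each of the pair and 9 in siControl; ESR1 stood at 4.74 in siUPF1 and 5.71 in siSTAU1. Their part in the differences of other genes was not tested.

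ALB, serum albumin, differed most after TAGLN and TANGO2 on the siUPF1 side. It stood at 9.02 in siUPF1, 7.05 in siSTAU1, 6.36 in siControl, 5.98 in Nondifferentiation and 2.38 in Differentiation, a difference of 1.97. ALB was the one of 17 hepatocyte markers at the floor. AFP, APOA2, TTR, SERPINA1, FGA and HNF4A were among the 12 listed at 0 in siUPF1. The hepatocyte markers summed to 579 linear units in siUPF1, 184 in siSTAU1 and 141 in siControl, with ALB the largest member in each. None of 12 blood and endothelial markers was at the floor in the pair, with HBB, a globin, at 6.31 in siUPF1 and 7.76 in siSTAU1, and of 10 glial and Schwann markers PMP22 alone was measured, at a difference of 0.17.

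**Figure D4:**
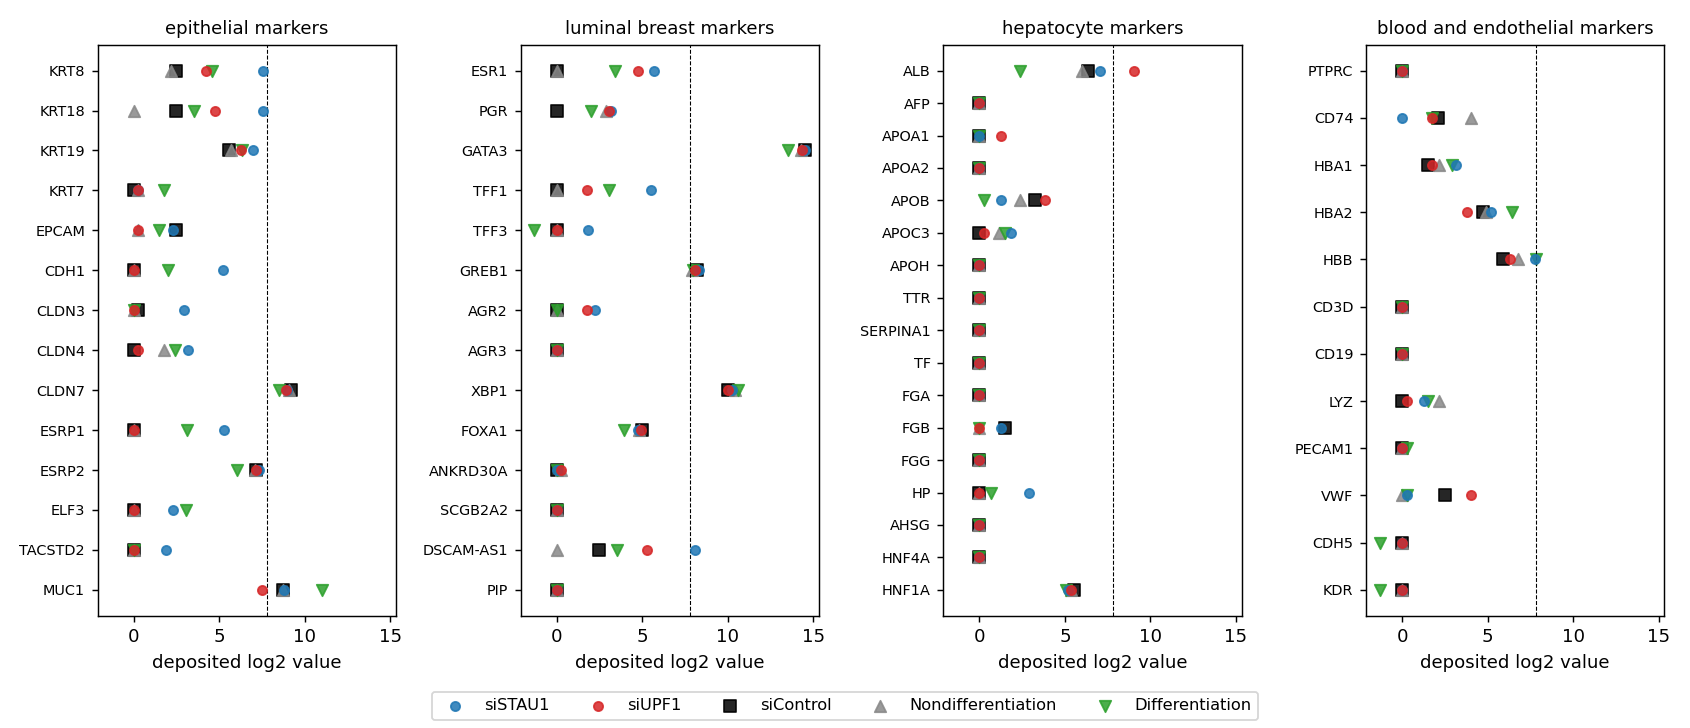
Deposited log2 value of each gene of 4 marker lists in the 5 libraries; the dashed line is the floor of 7.8 and 0 means listed at 0. KRT8, KRT18, CDH1, ESRP1 and DSCAM-AS1 are highest in siSTAU1, and ALB is the one hepatocyte marker at the floor in siUPF1, at 9.02.

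The difference went with base composition. GC content of the longest GENCODE transcript had a median of 57.5% over the matched genes higher in siUPF1, 42.6% over those higher in siSTAU1 and 47.5% over all matched genes. In the last 300 bases, which a 3' end library samples, the medians were 49.3%, 38.0% and 39.0%. Of 46 matched genes higher in siUPF1, 27 (58.7%) had a GC content above 55%, as had 7 of 25 (28%) on the siSTAU1 side and 26.4% of all. Across 10 bins of equal size the median difference went from -0.12 in the lowest GC bin to 0.10 in the highest. Pearson's r between GC content and the difference was 0.27 and Spearman's rho 0.28 across 8459 genes, which share the 2 libraries and are not independent. In siControl minus Nondifferentiation Spearman's rho was -0.13. Genes higher in siUPF1 were also shorter, with a median transcript of 2464.5 bases and 3' untranslated region of 828, against 3808 and 1426 over all and 4017 and 1539 on the siSTAU1 side.

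**Figure D5:**
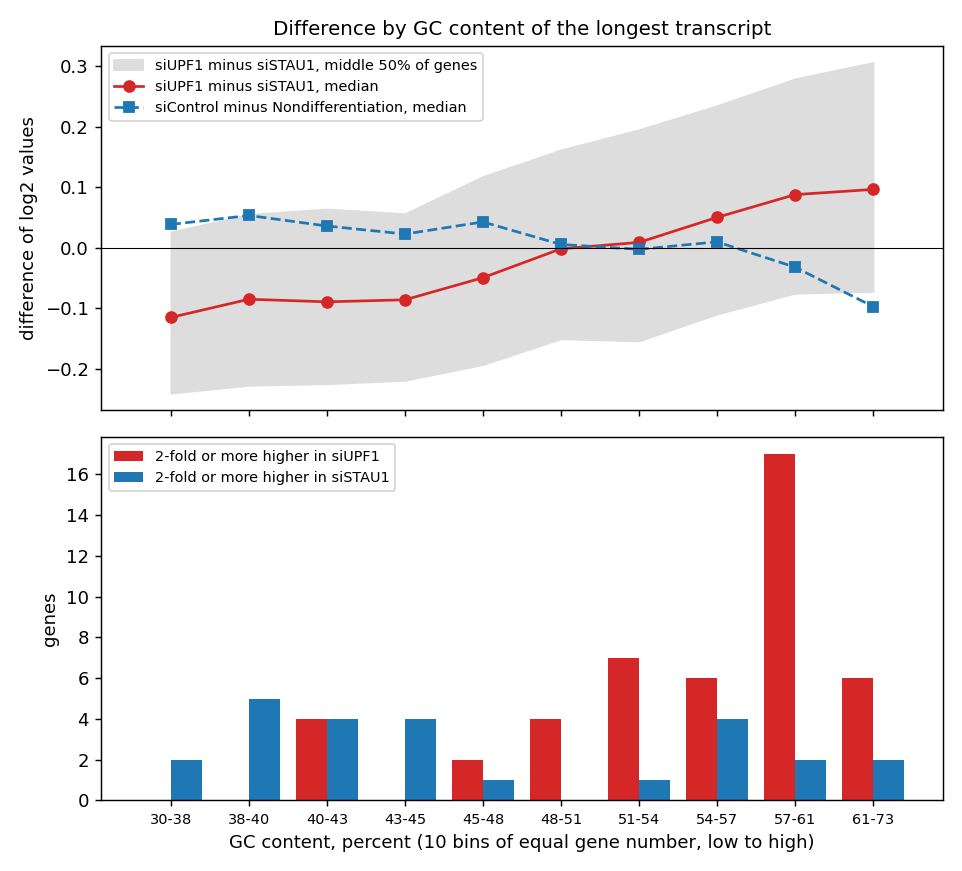
Top: median difference of log2 values in 10 bins of GC content of the longest transcript, for siUPF1 minus siSTAU1 (red, with the middle 50% of genes in grey) and siControl minus Nondifferentiation (blue). Bottom: genes 2-fold or more higher in siUPF1 (red) or siSTAU1 (blue) in each bin; the red median goes from -0.12 to 0.10, and the bin with most genes higher in siUPF1, 17, is the one next to the highest.

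After a trend in GC content and length was removed, 34 genes were 2-fold or more higher in siUPF1 and 20 in siSTAU1, and 51 of the 71 called genes with a corrected value kept their call; the other 2 of the 73 had no GENCODE match. The 20 that did not keep it had corrected differences of 0.79 to 1.00 in size. MIR1248 moved furthest, to -0.79, followed by SNORA81, at -0.88. Of the other genes described, ATF4 then stood at 0.97, SNHG7 at 0.98, CYB561 at 0.97, TGFB1I1 at 0.92, MUTYH at 0.98, DCLK1 at -0.95, PAK3 at -0.94, SNORA12 at -0.99, LUM at -0.94, TRPT1 at 0.98 and the pseudogene RP9P at 0.99. Features tied to nonsense-mediated decay were counted over the same sets, with few genes on either side. Of 41 protein-coding genes higher in siUPF1, 21 (51.2%) had a GENCODE transcript of the type nonsense-mediated decay, as had 3834 of 8261 (46.4%) of all and 7 of 19 (36.8%) on the siSTAU1 side. An ATG in the 5' untranslated region of the longest coding transcript was present in 58.5%, 56.9% and 68.4% of these sets. A splice junction over 50 bases after the stop codon was looked for in every coding transcript of a gene. At least 1 such transcript was present in 1 of 41 (2.44%), 278 of 8243 (3.37%) and 2 of 19 (10.5%). The median difference was -0.00 over protein-coding genes with a transcript of the nonsense-mediated decay type and -0.04 over those without one.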

How the data were processed

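The authors deposited 1 log2 value per gene symbol and library. Per the submitters' processing notes, Bowtie2, edgeR and build hg19 were used, with no role or version listed. How reads were assigned to genes, with which annotation and whether by strand, was not given by any source used here. Per the labels' protocols, 500 ng of total RNA went into QuantSeq 3' libraries. The deposited log2 values had the same maximum, 18.01, and an upper quartile of 8.63 to 8.64 in every library, and 100% of them in linear form were multiples of 1/5, the pattern of quantile normalization over 5 libraries; such scaling removes differences in overall distribution. Estimated totals ran from 15600000 to 30900000 reads.

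Differences were computed with pandas 2.3.3 and numpy 2.4.6 under Python 3.11.15, figures were drawn with matplotlib 3.10.9, and the steps were tested on simulated data. Tests were not possible with 1 library a group. The members and the 37 gene lists, 7 of markers, were chosen with earlier results of these data known. Named genes were STAU1, UPF1, the 15 highest and 15 lowest differences, list members past 2-fold, each list's 3 highest and 3 lowest members and the 5 largest in each siControl class; other names were added after their values were seen. GENCODE 29, of another build than hg19, gave features for 98.9% of measured genes by symbol; RefSeq promoters were found for 57 of 73 genes. Alternatives changed the floor, scale, centring, threshold and GC correction.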

Additional observations from a re-analysis of the deposited data

How the results depend on the processing

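STAU1 stayed between 1.54 and 1.57 and UPF1 between -1.55 and -1.42 under every alternative run. With a floor of 8.8 the genes higher in siSTAU1 numbered 7, and those higher in siUPF1 32. A floor of 6.8 gave 76 higher in siUPF1 and 52 higher in siSTAU1, and no floor, with genes above 0 in both libraries, gave 853 and 804. Where the mean of both values had to reach 7.8 the genes higher in siSTAU1 numbered 11, with 39 higher in siUPF1. A threshold of 1.5-fold, chosen after seeing the data, gave 308 and 150. Fewer or more genes tested, or a lower threshold, make these counts differ by construction, and most calls on the siSTAU1 side lay close to the floor. A pseudocount of 8 gave 47 and 23, centring 54 and 24, and removal of the GC and length trend 34 and 20. Of 33 list medians 25 kept their sign under all alternatives, among them UPF and SMG factors (0.35 to 0.46), actin genes (0.22 to 0.27), protein-coding decay targets (0.13 to 0.22), small nucleolar RNA host genes (0.15 to 0.20), p53 targets (0.16 to 0.21) and Staufen-mediated decay targets (0.06 to 0.25); the immediate early median ran from -0.00 to 0.26. No paired analysis was possible because each group had 1 library, and for the same reason no replicate could be left out. Depth limits the lower genes most: at the floor counting error alone allows a difference of about 0.29.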

Other observations

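Stress and growth lists had few genes past 2-fold between the knockdowns. Integrated and unfolded protein stress genes had a median of 0.00 over 23 measured, although ATF5, a relative of ATF4, stood at 10.61 in siUPF1 and 9.73 in siSTAU1 (0.88); TRIB3, a pseudokinase under ATF4, differed by 0.33, and ASNS, asparagine synthetase, by 0.03. Of 21 measured p53 targets 13 were above 0, with a median of 0.19 and none past 2-fold. PHLDA3, an inhibitor of Akt, was the highest at 0.95, but it stood at 8.74 in siControl and 10.02 in Nondifferentiation, a wider gap than that between the knockdowns, and the list's median in siControl minus Nondifferentiation was -0.38. Immediate early genes had a median of 0.15 over 12 measured, beside -0.49 between those 2 libraries, and MYC, at -1.50, was the one past 2-fold, on the siSTAU1 side. G2 and mitosis genes had a median of -0.07 and DNA replication and S phase genes of -0.06, over 38 measured genes each, with none past 2-fold.

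Abundant housekeeping groups lay slightly on the siSTAU1 side: cytosolic ribosomal proteins had a median of -0.10 with 62 of 79 below 0, nuclear-encoded respiratory chain genes -0.09 with 55 of 76 below 0 and aminoacyl-tRNA synthetases -0.12 over 29, where QARS reached 0.81. None of these passed 2-fold. Cholesterol synthesis genes had a median of -0.17 over 22, with TM7SF2 alone past 2-fold. In hypoxia and glycolysis, median -0.06 over 27, PDK1, the kinase that holds back pyruvate oxidation, stood at 9.28 in siUPF1 and 10.01 in siSTAU1, EGLN3 differed by -0.76 and SLC2A1, the glucose transporter, by -0.56, while the collagen hydroxylase P4HA2 had 0.77. SR proteins and hnRNPs had a median of -0.04 over 37; the neuronal splicing regulator PTBP2 was the lowest, at 10.67 in siUPF1 and 11.44 in siSTAU1.

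Signalling lists showed single genes and no common direction. Median differences were -0.08 for axon guidance and cell adhesion, -0.12 for WNT and planar polarity, 0.00 for the Notch pathway, 0.01 for retinoic acid response, -0.12 for IGF and IGF binding proteins, 0.09 for interferon response and MHC class I and -0.04 for caveolae and matrix genes. IGFBP4, which binds insulin-like growth factors, stood at 9.24 in siUPF1, 8.38 in siSTAU1 and 8.48 in siControl, and FZD6, a WNT receptor, at 8.67, 7.99 and 7.99. LFNG, which modifies Notch, differed by 0.65 and PRICKLE1, of planar polarity, by -0.57.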
